A study of Danio rerio with 6 samples.

Results

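The genes described here are 7 genes of the pancreatic islet, chosen by name from a table of 24470 zebrafish genes: the hormone genes ins, gcga, gcgb and sst1.1, the transcription factor genes pdx1 and mnx1, and the zinc transporter gene slc30a8. Each stood on 1 gene ID, and all 7 passed the filter on low values. Messenger RNA was sequenced from larvae, the only tissue label given, of the transgenic line Tg(Brn3C:mGFP), whose hair cells carry a green fluorescent protein in their membrane. Every library of both groups came from this line. The treated group (4-OI) held 3 libraries from larvae kept for 48 h, from 3 days post fertilization, in 2.5 µM 4-octyl itaconate, which is an ester of the metabolite itaconate made to enter cells. It was set against 3 libraries with a control label, whose protocol text names the same exposure, and all larvae were taken at 5 days. The sources used here do not give what the controls received, how many larvae made a library or which clutches they came from, so p-values measure the spread between these libraries, which may be technical.

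Islets are small clusters of endocrine cells within the pancreas that release peptide hormones into the blood. Beta cells make insulin, which lowers blood glucose, alpha cells make glucagon, which raises it, and delta cells make somatostatin, which restrains both. The hormones are cut from larger precursors in secretory granules, and insulin is stored there with zinc. Several islet genes are also active elsewhere: somatostatin genes in brain neurons, proglucagon genes in gut endocrine cells, pdx1 in the duodenal part of the gut and mnx1 in motor neurons. In RNA of larvae these sources cannot be told apart, nor can fewer cells of a type be told apart from less RNA per cell.

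The values are normalized counts, that is, gene counts divided by 1 factor per library by the authors. Reads recovered from them totalled 18017272 to 23507208 in 4-OI and 14763897 to 21096650 in control libraries. Log2 values across genes correlated at 0.972 between 4-OI replicates 2 and 3, at 0.928 and 0.939 between 4-OI replicate 1 and those libraries, and at 0.971 to 0.974 between controls. As 4-OI replicate 1 stood apart, each islet gene is given with and without it. It was singled out by these same values, and leaving it out can narrow the treated spread. An adjusted p without it can therefore be too small and is not stronger evidence. Of 20352 genes tested with limma, 35.0% were higher and 34.3% lower in 4-OI larvae at an adjusted p under 0.05, so a call alone was common in these libraries.

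Of the 7 islet genes, 4 rose in 4-OI larvae (ins, gcga, pdx1 and slc30a8), 2 fell (sst1.1 and mnx1) and gcgb did not pass the test. In all, 6 of 7 were called, against 69.3% of all tested genes, and the groups did not overlap for 5 of 7, against 74.1% of all tested genes (37.4% with 4-OI above control and 36.8% below). The median log2 fold change of the 7 genes was 1.097, against 0.01 for all tested genes. The shares called and not overlapping lie near those of the whole table, so the number of calls does not set the islet genes apart. The sizes did differ between them: 1.53% of tested genes had a higher log2 fold change than ins, and 3.75% had a lower one than mnx1.

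**Figure D1:**
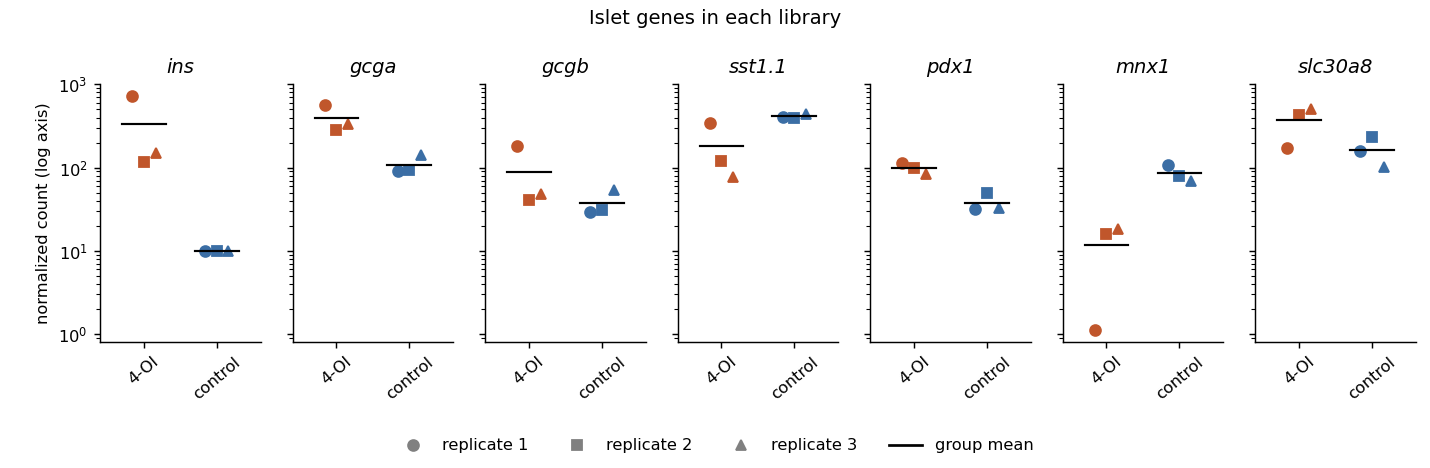
Normalized counts (log axis) of the 7 islet genes in each library, with 4-OI left of control and a horizontal line at the group mean. For ins all 4-OI libraries lie above all controls, for mnx1 and sst1.1 all lie below, and 4-OI replicate 1 is the highest treated library for 5 genes and the lowest for mnx1 and slc30a8.

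Insulin transcripts showed the largest change of the 7 genes. The gene ins (ENSDARG00000035350) had 726, 118 and 152 normalized counts in 4-OI replicates 1, 2 and 3, against 10.0, 10.00 and 9.87 in control replicates 1, 2 and 3. Every treated library lay above every control, and replicate 1 stood far above the other treated libraries. The level averaged 332 ± 342 in 4-OI and 9.96 ± 0.0854 in control larvae (SD, n = 3 each), a 33.3-fold rise (log2 fold change 4.43 with an SE of 0.61, limma adjusted p = 0.000208).

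The control level of ins rested on few reads, 10, 9 and 7 in control replicates 1, 2 and 3, against 648, 105 and 159 in the treated libraries. For control replicate 1 the exact 95% Poisson interval ran from 4.81 to 18.4 normalized counts, which covers counting error only, and the other control values lay within it. Without 4-OI replicate 1 the rise of ins was 13.5-fold (log2 fold change 3.62, limma adjusted p = 1.09e-05). The second insulin gene, insb, was too low to be tested, at 1.12, 8.999 and 2.86 normalized counts in 4-OI libraries and at 1.11 in control replicate 2 and 0 in control replicates 1 and 3.

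Of the proglucagon genes, which encode glucagon and glucagon-like peptides, gcga rose and gcgb did not pass. The gene gcga (ENSDARG00000079296) had 568, 281 and 332 normalized counts in 4-OI replicates 1, 2 and 3, against 90.2, 93.3 and 141 in controls. The groups did not overlap, and the means of 394 ± 153 in 4-OI and 108 ± 28.4 in control larvae (SD, n = 3 each) differed 3.64-fold (log2 fold change 1.82 with an SE of 0.30, limma adjusted p = 0.000607). Without 4-OI replicate 1 the fold was 2.84 (limma adjusted p = 0.000248).

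Its paralog gcgb (ENSDARG00000040907) had 179, 40.5 and 47.7 normalized counts in 4-OI replicates 1, 2 and 3, against 29.1, 31.1 and 53.6 in controls. Only replicate 1 stood clear of the controls, and the other treated libraries lay within their range. The log2 fold change of gcgb was 0.93 (with an SE of 0.55, limma adjusted p = 0.16), and without 4-OI replicate 1 it was 0.26 (limma adjusted p = 0.54). Within a library, the ratio of gcgb to gcga reads was 0.316, 0.144 and 0.144 in 4-OI replicates 1, 2 and 3, against 0.322, 0.333 and 0.380 in controls. Every treated ratio lay below every control ratio, but that of 4-OI replicate 1 was close to those of the controls.

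Somatostatin transcripts from sst1.1 went the other way from ins and gcga. The gene sst1.1 (ENSDARG00000040799) had 343, 121 and 76.4 normalized counts in 4-OI replicates 1, 2 and 3, against 408, 399 and 438 in controls. All treated libraries lay below all controls, with replicate 1 nearest to them. The level averaged 180.3 ± 143 in 4-OI and 415 ± 20.7 in control larvae (SD, n = 3 each), and fell by 1.49 on the log2 scale (SE 0.46, limma adjusted p = 0.0174).

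The adjusted p of sst1.1 lay near the threshold when single libraries were left out. Without 4-OI replicate 1 its log2 fold change was -2.09 (limma adjusted p = 1.15e-05). Leaving out 4-OI replicate 2 or 3, or control replicate 2 or 3, gave limma adjusted p of 0.0546, 0.0515, 0.0502 and 0.0514, while the log2 fold change stood at -1.35, -1.02, -1.52 and -1.45. With upper-quartile scaling the log2 fold change was -1.17 (limma adjusted p = 0.0534), and edgeR on recovered reads gave -1.16 (adjusted p = 0.0564). Neuron markers were also lower as a group: 18 of 20 were lower and none higher, against 34.3% and 35.0% of all tested genes. Their summed level was 647 to 1093 RPM (reads scaled to the library total) in 4-OI and 7401 to 8182 in control libraries, with no marker at 0 in a whole group. Library by library they differed from sst1.1. The markers took 0.0917%, 0.109% and 0.0647% of reads in 4-OI replicates 1, 2 and 3, against 0.740% to 0.818% in controls. In replicate 1 they thus stayed far below controls, while sst1.1 lay near them. The part of neuron markers in the fall of sst1.1 was not tested.

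Other somatostatin genes did not follow sst1.1. Transcripts of sst1.2 stood at 475, 249 and 333 normalized counts in 4-OI and at 85.2, 87.8 and 100.1 in control libraries, a 3.87-fold rise (limma adjusted p = 0.000181). Those of sst2 stood at 285, 134 and 122 in 4-OI and at 2.01, 5.56 and 0 in control libraries (log2 fold change 5.96 with an SE of 0.69, limma adjusted p = 7.33e-05). The log2 fold change of sst2 lay at 6.60 without control replicate 2 and at 5.24 without control replicate 3. Another gene of the family, sst6, had a log2 fold change of 0.63 and did not pass (limma adjusted p = 0.0558), although its 4-OI values of 110, 77.6 and 71.6 all lay above the control values of 54.1, 55.6 and 53.6. The genes sst1.2 and sst2 thus rose in the same larvae in which sst1.1 fell.

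The make-up of the hormone reads is a measure that no scaling between libraries can move. The shares are parts of 1 whole, so a fall of sst1.1 by itself raises the others, and they are not separate results. As a share of the reads of ins, gcga, gcgb and sst1.1 together, ins took 39.98%, 21.0% and 24.96% in 4-OI replicates 1, 2 and 3, against 1.87%, 1.88% and 1.54% in controls. The share of sst1.1 was 18.9%, 21.6% and 12.6% in 4-OI and 75.9%, 74.8% and 68.2% in control libraries. That of gcga was 31.3%, 50.1% and 54.6% in 4-OI and 16.8%, 17.5% and 21.9% in control libraries, and neither these shares nor those of ins and sst1.1 overlapped between groups.

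The share of gcgb overlapped, at 7.21% to 9.87% in 4-OI and 5.41% to 8.33% in control libraries. Transcript lengths were not at hand, so these shares compare libraries and not one hormone with another. For ins relative to sst1.1 the ratio averaged 1.69 ± 0.627 in 4-OI and 0.0240 ± 0.00136 in control larvae (SD, n = 3 each), 70.4-fold higher, and 61.5-fold without 4-OI replicate 1. The fall of sst1.1 enters this ratio as well as the rise of ins. An exact two-sided permutation test over the 6 libraries gave p = 0.1 for the shares of ins, gcga and sst1.1 and for this ratio, the smallest p that 3 against 3 allows (0.133 after Benjamini-Hochberg adjustment over 16 sums, shares and ratios).

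**Figure D2:**
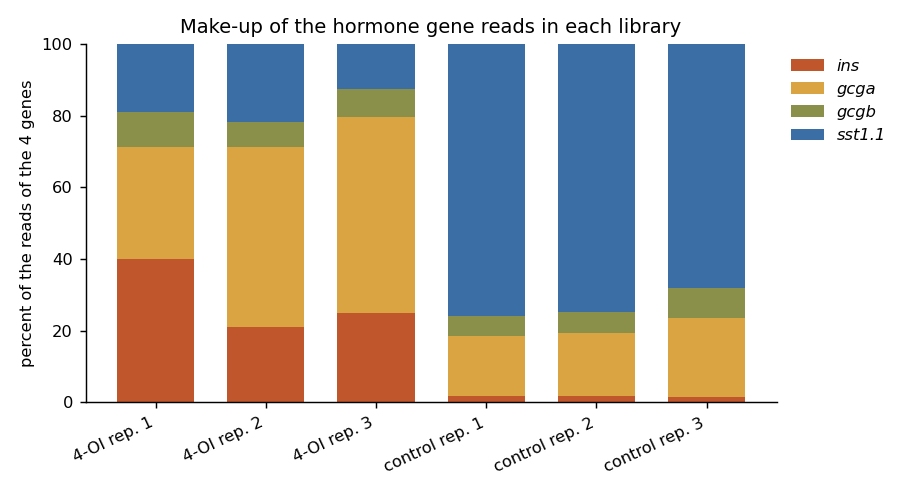
Share of the summed reads of ins, gcga, gcgb and sst1.1 taken by each gene, in percent, in each library, with 4-OI libraries left of controls. The share of sst1.1 is 12.6% to 21.6% in 4-OI and 68.2% to 75.9% in control libraries, and that of ins is 21.0% to 39.98% in 4-OI and 1.54% to 1.88% in control libraries.

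Summed over the 4 hormone genes, normalized counts were 1817, 561 and 608 in 4-OI replicates 1, 2 and 3, against 537, 533 and 643 in controls. Replicate 1 lay above all other libraries, while 4-OI replicates 2 and 3 lay within the range of the controls. The sum averaged 995 ± 712 in 4-OI and 571 ± 62.0 in control larvae (SD, n = 3 each; exact two-sided permutation p = 0.5), and 585 in 4-OI larvae without replicate 1. The shares of ins, gcga and sst1.1 thus did not overlap between groups, while the sum stood above the controls in 1 treated library. Sum and shares hold for these 4 genes only. They leave out sst1.2 and sst2, which both rose. These had 249 to 475 and 122 to 285 normalized counts in 4-OI libraries, against 85.2 to 100.1 and 0 to 5.56 in controls.

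Exocrine genes of the same organ moved on another scale. Of 24 tested exocrine markers 23 rose and none fell, against 35.0% and 34.3% of all tested genes, with a median log2 fold change of 6.97. The markers summed to 9423 to 18642 RPM in 4-OI and 62.6 to 99.8 in control libraries. Of this list, rbpjl and 1 gene ID named cela1.5 were at 0 in all controls. The protease genes prss59.2, cpa5 and cpb1 and the elastase gene ela2 had log2 fold changes of 8.98, 8.10, 5.85 and 8.58. The gene ptf1a, for a transcription factor of acinar cells, had -0.11 and did not pass. It was low, averaging 24.1 normalized counts in 4-OI and 26.9 in control larvae. Which cells its reads came from was not tested. The 4 hormone genes summed to 0.440%, 0.202% and 0.288% of the exocrine sum in 4-OI libraries, against 40.6%, 29.1% and 31.8% in controls. Replicate 1 held the highest treated value in 17 of the 24 exocrine genes, as it did for the 4 hormone genes, whereas it was the highest treated library for 39.4% of all tested genes. The part of pancreatic tissue content in the hormone levels was not tested.

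The transcription factor gene pdx1, needed for pancreas formation and for insulin expression, rose and varied least among the treated libraries. It (ENSDARG00000002779) had 113, 97.9 and 85.0 normalized counts in 4-OI replicates 1, 2 and 3, against 32.1, 48.9 and 32.4 in controls. The groups lay well apart, and the means of 98.7 ± 14.2 in 4-OI and 37.8 ± 9.61 in control larvae (SD, n = 3 each) differed 2.61-fold (log2 fold change 1.38 with an SE of 0.28, limma adjusted p = 0.00218). Without 4-OI replicate 1 the fold was 2.42 (limma adjusted p = 0.00441).

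Ratios to pdx1 were compared within each library. The ratio of ins to pdx1 was 6.42, 1.21 and 1.79 in 4-OI libraries and 0.312, 0.205 and 0.304 in controls, with no overlap. The ratio of gcga to pdx1 was 5.02, 2.87 and 3.91 in 4-OI and 2.81, 1.91 and 4.35 in control libraries, which overlapped (exact two-sided permutation p = 0.4). Gut markers were also higher as a group, and the gut expresses pdx1. Among treated libraries pdx1 was highest in replicate 1, which was lowest for 11 and highest for 4 of 17 enterocyte markers. Of 17 enterocyte markers 16 were higher and none lower, against 35.0% and 34.3% of all tested genes. They summed to 7592 to 9042 RPM in 4-OI and 336 to 443 in control libraries, with none at 0 in a whole group. Their part in the rise of pdx1 was not tested.

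The homeobox gene mnx1, which in zebrafish guides endocrine precursors towards the beta cell fate and is also a motor neuron gene, fell. It (ENSDARG00000035984) had 1.12, 15.7 and 18.1 normalized counts in 4-OI replicates 1, 2 and 3, against 107, 80.0 and 69.1 in controls. Replicate 1 held 1 read of it (exact 95% Poisson interval 0.0284 to 6.25 normalized counts), and replicates 2 and 3 held 14 and 19 reads, against 107, 72 and 49 reads in controls. The level averaged 11.7 ± 9.21 in 4-OI and 85.4 ± 19.7 in control larvae (SD, n = 3 each), 7.32-fold lower (log2 fold change -3.27 with an SE of 0.77, limma adjusted p = 0.00473).

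Without 4-OI replicate 1, mnx1 was 5.04-fold lower (log2 fold change -2.25, limma adjusted p = 0.00016). Motor neuron and spinal cord markers were also lower as a group: 14 of 15 were lower and none higher, against 34.3% and 35.0% of all tested genes. Among treated libraries mnx1 was lowest in replicate 1, which was highest for 8 and lowest for 4 of these 15 markers. Their median log2 fold change was -2.51, and none was at 0 in a whole group. They summed to 71.3 to 133 RPM in 4-OI and to 547 to 556 in control libraries. Among them, chata and slc18a3a, which make and load acetylcholine, and slc5a7a, which takes up its precursor choline, were 12.0-fold, 8.39-fold and 12.9-fold lower (limma adjusted p of 1.28e-06 to 3.85e-06). Each of these genes was highest among treated libraries in replicate 1, where mnx1 was lowest. The part of motor neuron and spinal cord markers in the fall of mnx1 was not tested. The related genes mnx2a and mnx2b were too low to be tested, at 12.3, 5.62 and 11.5 and at 10.1, 19.1 and 5.73 normalized counts in 4-OI libraries, against 2.01, 0 and 5.64 and 4.01, 4.44 and 0 in controls.

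The zinc transporter gene slc30a8, whose product loads zinc into insulin granules, rose by a small margin. It (ENSDARG00000100917) had 172, 430 and 505 normalized counts in 4-OI replicates 1, 2 and 3, against 160.4, 231 and 101.5 in controls. The groups overlapped, because 4-OI replicate 1 lay below control replicate 2. The means were 369 ± 175 in 4-OI and 164 ± 64.9 in control larvae (SD, n = 3 each), a 2.24-fold difference (log2 fold change 1.097 with an SE of 0.43, limma adjusted p = 0.0466).

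Single libraries decided the call of slc30a8. Without 4-OI replicate 1 the log2 fold change was 1.58 (limma adjusted p = 0.000832). It did not pass without 4-OI replicate 2 or 3 or without control replicate 1 or 3 (limma adjusted p of 0.136, 0.161, 0.0968 and 0.162), while the log2 fold change stood at 0.92, 0.80, 1.12 and 0.79. Nor did it pass without the intensity trend, where the log2 fold change is the same (limma adjusted p = 0.0857). Among treated libraries slc30a8 was lowest where ins was highest. The ratio of slc30a8 to ins was 0.236, 3.64 and 3.33 in 4-OI and 16, 23.1 and 10.3 in control libraries. Which cells the slc30a8 reads came from was not tested.

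**Figure D3:**
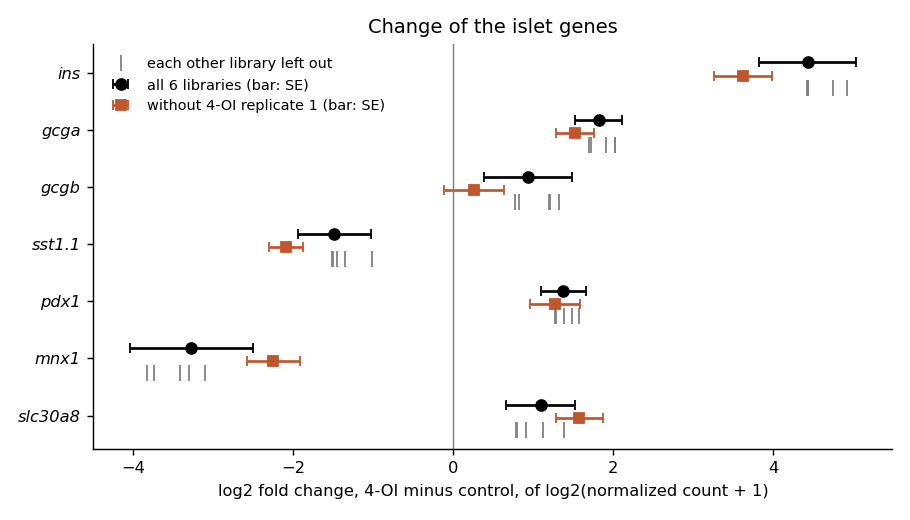
Log2 fold change (4-OI minus control) of each islet gene with all 6 libraries (black, bar: SE), without 4-OI replicate 1 (orange, bar: SE) and with each other library left out (grey ticks). The value of ins is 4.43 and 3.62 without that library, that of mnx1 is -3.27 and -2.25, and that of gcgb is 0.93 and 0.26.

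Of 8 other Slc30 zinc transporter genes tested, 5 rose, against 35.0% of all tested genes, and none fell (1 did without 4-OI replicate 1), with a median log2 fold change of 0.89. The other members, slc30a1a, slc30a5 and slc30a9, did not pass, at -0.11, -0.30 and -0.07 on the log2 scale (limma adjusted p of 0.124 to 0.704). Transcripts of slc30a1b rose 36.5-fold, those of slc30a10 4.98-fold, those of slc30a4 2.89-fold and those of slc30a6 2.11-fold (limma adjusted p of 3.6e-05 to 0.00287). The control level of slc30a1b rested on 2, 7 and 1 reads, and its fold was 79.7 without control replicate 2. The log2 fold changes of slc30a1b, slc30a10 and slc30a4 exceeded that of slc30a8 with all libraries and with each library left out in turn.

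Other endocrine peptide genes of islet and gut were higher in 6 and lower in 6 of 15 tested cases, near the 35.0% and 34.3% of all tested genes, with a median log2 fold change of 0.51. Besides sst2 and sst1.2, vipb, of the vasoactive intestinal peptide family, rose 9.69-fold (limma adjusted p = 3.97e-05). Its paralog vip fell, with a log2 fold change of -1.26 (limma adjusted p = 0.000516). The gene trh, for the hypothalamic thyrotropin-releasing hormone, was 5.76-fold lower (limma adjusted p = 1.21e-05). The incretin gene gip and the peptide YY gene pyyb had log2 fold changes of 2.15 and 2.21, while the paralog pyya had -1.82 (limma adjusted p of 0.000263 to 0.00209). The ghrelin gene ghrl was too low to be tested. It stood at 14.6, 8.999 and 9.55 normalized counts in 4-OI libraries and at 0 in all 3 controls, at least 9.59-fold higher against a floor of 3 reads over the control group. Picked out after their values were seen, vip, gip, pyya, pyyb, ghrl and sst6 lie outside the naming rule.

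Genes that process and release peptide hormones mostly fell, although ins and gcga rose. Of 21 tested, 14 (66.7%) were lower and 2 (9.52%) higher, against 34.3% and 35.0% of all tested genes, with a median log2 fold change of -2.09. The granule membrane protein gene ptprna was 15.8-fold lower, the granule exocytosis gene cadpsb 19.1-fold, the calcium sensor gene syt7b 17.3-fold and cpe, which trims prohormones, 6.86-fold (limma adjusted p of 6.72e-07 to 2.64e-06). All of these act in neurons as well, and the part of the fall in neuron markers in these changes was not tested.

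The prohormone convertase genes, whose enzymes cut proinsulin and proglucagon, were not among those that fell. Nor were some others of the list, picked out after their values were seen. The genes pam, slc30a5, ero1b and ptprnb did not pass, and slc30a7 rose (log2 fold change 0.73, limma adjusted p = 0.00373). Of these, slc30a5 and slc30a7 are also counted among the Slc30 zinc transporter genes. Transcripts of pcsk1 stood at 67.3, 98.99 and 45.8 normalized counts in 4-OI and at 47.1, 56.7 and 28.2 in control libraries and did not pass (log2 fold change 0.66 with an SE of 0.38, limma adjusted p = 0.152; 0.04996 and past the threshold with upper-quartile scaling). Those of pcsk2 stood at 37.0, 69.7 and 54.4 in 4-OI and at 27.1, 31.1 and 25.4 in control libraries (log2 fold change 0.88 with an SE of 0.33, limma adjusted p = 0.0406). That call was lost without 4-OI replicate 2 or 3 (limma adjusted p = 0.14 and 0.104), without control replicate 1, 2 or 3 (0.0925, 0.0611 and 0.0981), after quantile normalization (0.203), with no filter on low values (0.0507) and with a block for the replicate number (0.0554). Its log2 fold change was 0.67 without 4-OI replicate 2 and 0.53 after quantile normalization, and 0.82 to 0.96 in the others of these settings.

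**Figure D4:**
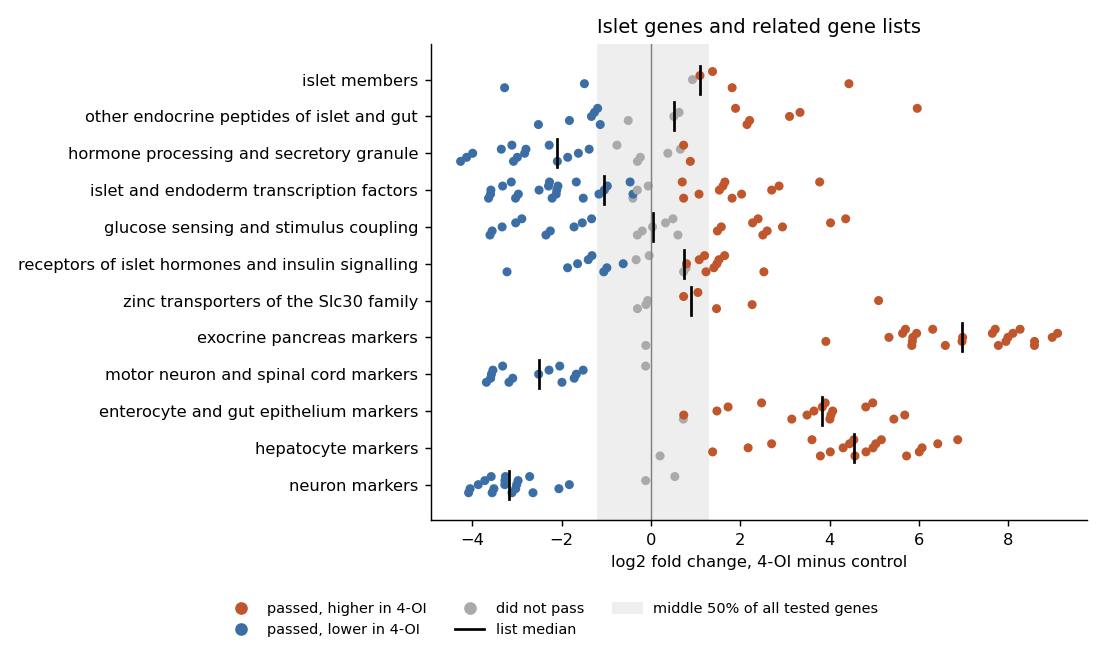
Log2 fold change (4-OI minus control) of every tested gene in the islet set and 11 related lists, one point per gene, coloured by whether it passed the limma test, with the list median as a black line and the middle 50% of all tested genes in grey. Granule and motor neuron lists have medians of -2.09 and -2.51, exocrine and enterocyte lists of 6.97 and 3.84, and the 7 islet genes one of 1.097.

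Transcription factor genes of islet and endoderm went both ways: of 35 tested, 21 were lower and 11 higher. These are 60.0% and 31.4%, against 34.3% and 35.0% of all tested genes, so the share higher lay near that of the whole table. The median log2 fold change was -1.04. Transcripts of neurod1, for endocrine and neuronal differentiation, averaged 1030 ± 873 in 4-OI and 7218 ± 711 in control larvae (SD, n = 3 each), 7.01-fold lower, with a log2 fold change of -3.12 (limma adjusted p = 0.00033), and of -3.78 without 4-OI replicate 1, which also moved pax6b to -4.09 (-3.63 with all libraries). Those of pax6b, nkx2.2a, insm1b, nkx6.1, nkx6.2 and sox4a were 11.4-fold, 5.64-fold, 4.29-fold, 10.2-fold, 8.09-fold and 7.65-fold lower (limma adjusted p of 3.37e-06 to 3.64e-05). Of these, nkx6.1 is also counted among the motor neuron and spinal cord markers. Neuron markers were lower in the same larvae (18 of 20), and their part in these falls was not tested.

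Those that rose, which were read off after their values were seen, included arxa, a factor of the alpha cell lineage and of forebrain neurons, mafbb, 1 of the gene IDs named ascl1b, hnf1ba, hnf4a, foxa3, foxo1a, gata4, gata5 and gata6. Related genes fell: arxb, mafba, mafa and the other gene ID named ascl1b had log2 fold changes of -2.12, -1.16, -0.46 and -2.08 (limma adjusted p of 0.000535 to 0.0418). Factors known from liver, gut and pancreas went both ways: gata4, gata6, hnf4a and foxa3 had log2 fold changes of 3.78, 2.87, 1.66 and 1.53, while foxa1, foxa2, onecut1 and prox1a had -0.98, -1.04, -1.51 and -1.67 (limma adjusted p of 5.13e-05 to 0.0177). In the same larvae 19 of 20 hepatocyte markers were higher and none lower, against 35.0% and 34.3% of all tested genes. They summed to 14748 to 16017 RPM in 4-OI and 430.2 to 546 in control libraries, with none at 0 in a whole group. Their part in these changes was not tested.

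Genes of glucose sensing and of the coupling of glucose to hormone release were higher in 9 and lower in 10 of 25 tested cases, near the 35.0% and 34.3% of all tested genes, with a median log2 fold change of 0.04. The glucose-6-phosphatase gene g6pca.2 rose 16.3-fold and the glutamate dehydrogenase gene glud1a 5.67-fold. The synaptic release genes snap25a and snap25b were 7.99-fold and 10.9-fold lower (limma adjusted p of 5.47e-07 to 1.6e-05 over these genes). The gene snap25a is also counted among the neuron markers. In the same larvae 19 of 20 hepatocyte markers were higher and 18 of 20 neuron markers lower. Their part in these changes was not tested. Of the beta cell channel that closes when glucose is high, picked out after their values were seen, the pore gene kcnj11 had a log2 fold change of 1.57 and the sulfonylurea receptor gene abcc8 one of -2.25 (limma adjusted p = 0.00173 and 3.09e-05). The 2 gene IDs named kcnj11l, paralogs of the pore gene, had -1.33 and -2.35 (limma adjusted p = 0.0153 and 0.000205). Glucokinase transcripts (gck), known from beta cells and liver and also named after their values were seen, stood at 423, 91.1 and 106 normalized counts in 4-OI and at 21.1, 26.7 and 29.6 in control libraries. As for ins, 4-OI replicate 1 held the highest value by far (8.01-fold, log2 fold change 2.60, limma adjusted p = 0.00224), and without it the fold was 3.82 (limma adjusted p = 0.000409).

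Receptors of islet hormones and insulin signalling genes were higher in 9 and lower in 8 of 21 tested cases, also near the 35.0% and 34.3% of all tested genes, with a median log2 fold change of 0.73. By p the first were igf1rb, pik3r1, sstr1b and ptena, which had log2 fold changes of -1.64, -1.40, -3.22 and -0.98 (limma adjusted p of 1.57e-05 to 0.000177). Chosen after their values were seen, the insulin receptor paralogs had log2 fold changes of opposite sign: insra had 629, 614 and 642 normalized counts in 4-OI and 988, 999 and 913 in control libraries, while insrb had 400, 316 and 342 in 4-OI and 158, 149 and 192 in control libraries (log2 fold changes of -0.62 for insra and 1.08 for insrb, limma adjusted p = 0.00257 and 0.000807). The glucagon receptor genes gcgra and gcgrb had log2 fold changes of 1.65 and 1.48 (limma adjusted p = 0.000191 and 0.0131).

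Over the 6 libraries, the named genes whose log2 values followed each islet gene most closely were different for each. They are a description, given with no test, since with 6 libraries and a large difference between groups many genes correlate highly. For ins these were the protease gene prss60.2 (Pearson r = 1.00) and ovol1a (0.999), and 6.80% of 15479 genes reached an r over 0.95. For gcga they were cyp2v1 and ost4 (0.997 each), for pdx1 si:ch211-215a10.4 and CABZ01068358.1 (0.997 and 0.996), and for mnx1 phf21ab was among the closest (0.998). For sst1.1 they were ptpn2b and zgc:77112 (0.996 and 0.995), with 1.28% of genes over 0.95. Fewer genes followed gcgb and slc30a8, with 0.265% and 0.194% over 0.95, led by zgc:154075 (0.997) and gemin4 (0.985).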

How the data were processed

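Messenger RNA of 6 libraries of zebrafish larvae, 3 per group, was analysed. The authors deposited a signal value per gene and library, a normalized count. The submitters' processing notes list STAR 2.7.10a, Salmon 1.9.0, fastp 0.23.2, bcl2fastq 2.20.0.422, DESeq2 without a version and build GRCz11. They name no role or filter, and the sources used here do not say how reads shared between similar genes or strands were counted. Groups follow the treatment label, since the protocol text stands alike on all 6 samples. Dividing each library by its smallest value gave whole reads: 100% of values lay within 0.01 of a whole number.

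Genes averaging 10 or more normalized counts were tested (20352, leaving out 4118) as log2(normalized count + 1), which understates changes of low genes, with limma 3.58.1 in R 4.3.3 (moderated two-sided test, intensity trend, Benjamini-Hochberg adjustment over all tested genes, threshold 0.05). Log2 fold changes are 4-OI minus control, and folds are ratios of group means. The code was tested on simulated counts in which few genes changed. Most genes were called here, so that test does not cover the scaling or the share of false calls in these data. Deviations of same-numbered libraries from their group means were hardly correlated, so the libraries were treated as unpaired. This cannot tell whether a pairing was made. Python 3.11.15 and matplotlib 3.10.9 drew the figures.

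The islet genes and 11 related lists were chosen with earlier results of these data known. Of 263 symbols written in those lists, 237 matched. Named beside the islet genes were fixed partners (insb, sst1.2, mnx2a, mnx2b, pcsk1, pcsk2, neurod1, pax6b, nkx2.2a), up to 4 called genes of smallest p per list with a mean of at least 50 in the higher group, and the closest correlates; a few genes are not reported here. Alternatives covered pseudocount, filter, scaling, limma options, a replicate block, each library left out, and count models of the recovered reads in DESeq2 1.42.0 and edgeR 4.0.16. No sequences or coordinates of the build were used here.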

Additional observations from a re-analysis of the deposited data

How the results depend on the processing

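Over 17 alternatives, 4 of the 7 islet genes kept their call wherever they were tested: ins (log2 fold change 3.62 to 5.09), gcga (1.52 to 2.14), pdx1 (1.12 to 1.70) and mnx1 (-3.83 to -2.25, not tested with a minimum mean of 50); gcgb (0.26 to 1.32) passed under none. Islet genes called lower numbered 2, and 1 with a minimum mean of 50, with upper-quartile scaling and by edgeR on recovered reads, and 1 to 2 with a library left out. In the first case mnx1 fell under the filter and in the others sst1.1 missed the threshold; the cause was not tested. No direction reversed. DESeq2 on recovered reads kept all 6 calls. Upper-quartile scaling shifted the median of all genes to a log2 fold change of 0.33. It called 8493 genes higher and 5693 lower, against 7115 and 6983 in the main fit. The shares of all tested genes set beside each list thus depend on the scaling. The replicate numbers showed no pairing of the libraries (correlations of same-numbered deviations from group means -0.02, -0.06 and 0.05), which cannot tell whether one was made. The fit with a replicate block called 6900 genes higher and 6779 lower, against 7115 and 6983, and the same islet genes. Of the values recomputed for the other genes named by the rule, 789 kept their side of the threshold, 8 lost it (all of pcsk2) and 1 gained it (pcsk1). Outside that rule, ptf1a, slc30a1a and slc30a9, which did not pass, changed sign with a library left out. The log2 fold change was 0.17 for ptf1a without control replicate 3. Without 4-OI replicate 1 it was 0.18 for slc30a1a and 0.01 for slc30a9. Low counts limit ins in controls and mnx1 in treated libraries.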

Other observations

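Endocrine peptide genes shared the pattern of the hormone genes among treated libraries. In 13 of the 15 tested endocrine peptide genes of islet and gut beside the islet set, 4-OI replicate 1 held the highest value of the 3 treated libraries, as it did for ins, gcga, gcgb, sst1.1 and pdx1. Over all tested genes it was the highest treated library in 39.4% and the lowest in 40.8%. Zinc transporter genes ran the other way: 4-OI replicate 1 was the lowest treated library for 7 of 8 Slc30 genes, as it was for slc30a8, and for 11 of 17 enterocyte markers. The peptide genes that were highest there include both some that rose in 4-OI larvae, such as sst2, and some that fell, such as cckb, which stood at 506, 128 and 152 normalized counts in 4-OI and at 559, 566 and 499 in control libraries (log2 fold change -1.33, and -1.95 without 4-OI replicate 1). These counts were made after the values were seen, and what sets that library apart was not tested.

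Spread within the treated group differed widely between the islet genes. The coefficient of variation in 4-OI libraries was 103% for ins, 87.6% for gcgb, 79.2% for sst1.1 and 78.9% for mnx1, against 14.3% for pdx1. Genes with a mean of 50 to 500 normalized counts had a median of 21.3% in 4-OI and 14.7% in control libraries. The mean of mnx1 over all 6 libraries, 48.6, lay just under that range. Its 4-OI libraries held 1, 14 and 19 reads, so counting error enters its spread. In controls sst1.1 varied by 4.98% and ins by 0.857%, with ins resting on 7 to 10 reads per library. That value for ins lies below the counting error of so few reads, so it does not measure the spread between controls. The exact 95% Poisson interval of ins in control replicate 1 ran from 4.81 to 18.4 normalized counts.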
